A study of Mus musculus with 24 samples.

Results

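Silencing of H19 in undifferentiated brown adipose tissue (BAT) precursors was examined in 6 RNA-Seq libraries of d0 cells, 3 given an siRNA against H19 (siH19) and 3 given a non-targeting siRNA (siCtrl), out of 24 libraries in the series. All genes with a value of at least 1 FPKM (a level in which the fragments of a gene are divided by its transcript length and by library size) in at least 3 of these 6 libraries were described, which gave 12651 of 49452 genes. The cells were primary cultures of the stromal vascular fraction of BAT from C57BL/6 mice, that is, the non-adipocyte cells left after the lipid-filled fat cells are taken out. Cells of both groups had been nucleofected with an siRNA before harvest, and d0 is the time before differentiation was induced. The control libraries carry the letters siKO in their titles and the knockdown libraries carry siH19_3, while a separate label field names the same libraries as non-targeting and as H19-targeting. Nothing in the sources used here says whether the 3 replicates of a group came from separate mice or cultures, so p-values measure only the spread between these samples, which may be technical. The remaining libraries hold BAT cells on the third day of differentiation (d3) and cells of visceral white adipose tissue (vWAT), and they enter only where the d0 brown response is set beside theirs.

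H19 is a long noncoding RNA that is transcribed from the maternal chromosome only and shares an imprinted domain with Igf2, the paternally expressed gene of a fetal growth factor. It also hosts a microRNA in its first exon, and in fat it has been studied as a maternally expressed gene (MEG) that acts on paternally expressed genes (PEGs). Brown adipocytes arise from stromal precursors in a cascade in which C/EBPβ is induced early, PPARγ and C/EBPα follow and then maintain each other, and the genes of lipid storage, adipokines and heat production come last. An siRNA guide strand finds its target by full pairing and can also pair through its seed, bases 2 to 8, with other RNAs.

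The guide strands are shown because they fix where the knockdown acts and because the seed in capitals is the stretch through which a guide can pair with other transcripts. The methods name the first oligo for the cultured cells, whereas the 3 in the titles could refer to the other one, and which of them was used in these libraries is not settled by the sources used here.
siH19: uCUUGAUUcagaacgagacgg
siH19#3: uGGUGUUCaagaaggcuggat
The first guide matches the site gtctcgttctgaatcaaga at chr7:142576255-142576273 (GRCm38, minus strand), which lies in exon 3 of the 3 exons of an annotated H19 transcript. The other guide matches ccagccttcttgaacacca, which spans the junction of exons 2 and 3, with 1 part at chr7:142576613-142576624 and the other at chr7:142576524-142576530. Each site is present in 5 of the 7 annotated H19 transcripts. Matches of the guides to other transcripts were not analysed here.

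The 6 libraries were alike in size and content. Column sums were 710794 to 723104 FPKM, and 12508 to 12657 genes per library reached 1 FPKM. How many fragments stand behind each library is not known, while the steps between low values gave depths of 0.884 to 1 relative to siCtrl replicate 1, with all siH19 libraries at or under 0.926 and all siCtrl libraries at or over 0.914. Pearson r across genes on the log2(FPKM + 1) scale was 0.980 to 0.984 between replicates of a group and 0.974 to 0.980 between groups. Of genes with a median of at least 5 FPKM, 67 were listed at 0 in some library, so a single 0 was not read as absence.

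H19 itself (ENSMUSG00000000031, chr7:142575529-142578143, minus strand) was the check of the labels. It stood at 108, 160.4 and 122 FPKM in the siCtrl libraries and at 2.82, 5.20 and 5.05 FPKM in the siH19 libraries. Every siH19 library was far under every siCtrl library, in keeping with the labels, and the siH19 mean was 3.35% of the siCtrl mean (130.3 ± 27.1 against 4.36 ± 1.33 FPKM, SD, n = 3 each). On the log2(FPKM + 1) scale H19 fell by 4.63 (SE 0.22, adjusted p = 0.00225, limma), and the exact two-sided permutation test over the 6 libraries gave p = 0.1, the smallest value that 3 against 3 libraries allow. BAT precursors were also the cells with the highest H19 level among those compared here, since siCtrl means were 89.8 FPKM in BAT at d3 and 11.7 FPKM in vWAT precursors, and siH19 means there were 13.7 and 1.21 FPKM.

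The neighbours of H19 on chromosome 7 were next. Igf2 lay at 37.4, 46.4 and 43.8 FPKM in siCtrl and at 36.5, 48.5 and 51.3 FPKM in siH19 libraries, so the groups overlapped (log2 fold change 0.08, SE 0.14, adjusted p = 0.793). Its sign turned without siCtrl replicate 1 and without siH19 replicate 3. Mrpl23, which encodes a mitochondrial ribosomal protein, had a log2 fold change of -0.07 (SE 0.07, adjusted p = 0.61). Lsp1, a leukocyte-specific protein gene, had -0.23 (SE 0.09, adjusted p = 0.238) and Tnnt3, a fast skeletal muscle troponin, had 0.22 (SE 0.20, adjusted p = 0.592). None of these 4 genes passed the test, and Syt8, Nctc1 and Ins2 stayed under the expression filter, with Syt8 the nearest to it at 0.193 to 1.47 FPKM in siCtrl libraries.

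Across all 12651 genes, 245 (1.94%) were called, that is, had an adjusted p under 0.05 in limma and a change of at least 1.3-fold. Of these, 167 genes (1.32%) were lower and 78 genes (0.617%) were higher after H19 silencing. The share of higher genes among the calls depended on scaling, since trimmed-mean scaling gave 97 higher and 137 lower and quantile normalization gave 96 higher and 131 lower. The median log2 fold change of all genes tested was -0.03, with 57% of genes below 0 and 43% above 0, so values of gene groups are given beside that median. For every called gene the 3 siH19 libraries lay on 1 side of the 3 siCtrl libraries, where 16.1% of all genes tested lay wholly below and 10.6% wholly above. Only 22 of the lower and 3 of the higher genes changed at least 2-fold, and 152 of the lower and 68 of the higher genes were protein coding. The filter itself favoured some calls, because 16 of the lower genes passed it only through siCtrl libraries and 3 of the higher genes only through siH19 libraries.

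The number of calls rested on having all 6 libraries. It was 16, 14 and 4 without siCtrl replicates 1, 2 and 3 and 60, 74 and 21 without siH19 replicates 1, 2 and 3, each in a fit with fewer samples. Gene group counts given further on fell in most of these fits too. The plot of all genes tested shows H19 and a few short RNAs far from the rest, and Cfd, Car3 and Adipoq as the next lower genes at high levels.

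**Figure D1:**
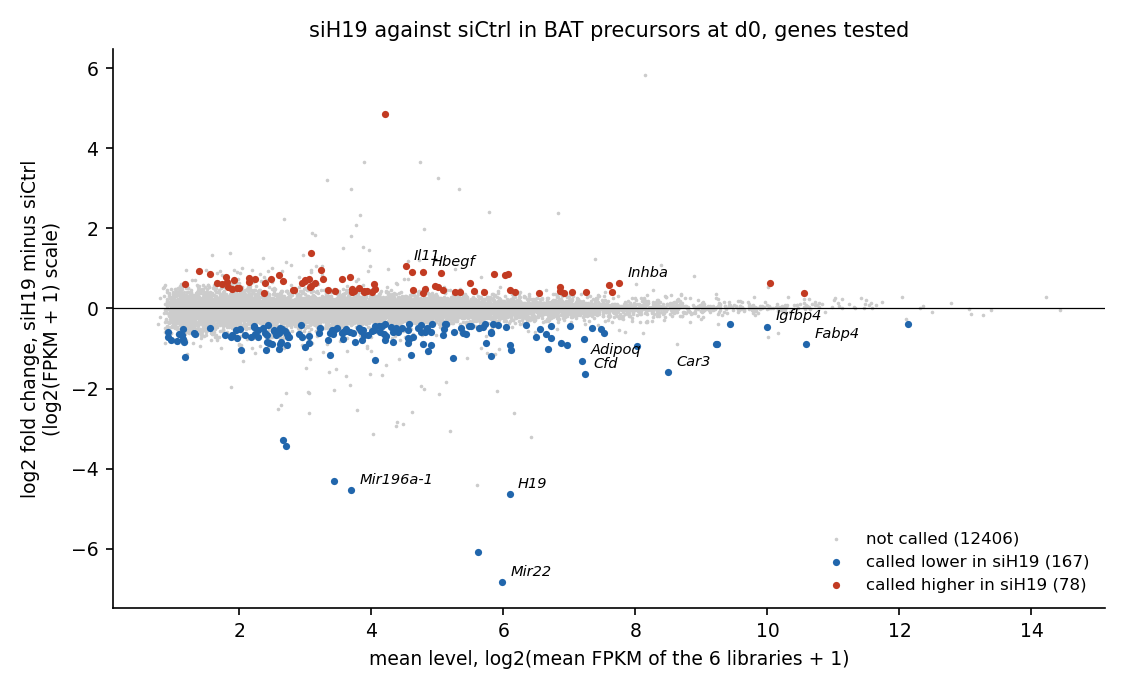
Log2 fold change of siH19 minus siCtrl against mean level, log2(mean FPKM of the 6 libraries + 1), with 1 point for each of the 12651 genes tested and called genes in colour. H19 lies at -4.63, Cfd at -1.63 and Il11 at 1.05.

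Adipocyte genes were among those that fell, and mature adipocyte markers had the lowest median of the lists described. The share called lower was 1.32% over all genes tested. Among 7 mature adipocyte markers tested, 6 fell, none rose and all 7 had a log2 fold change below 0, with a median of -0.91 against -0.03 over all genes. Cfd, which encodes the adipokine adipsin, stood at 207, 227 and 244 FPKM in siCtrl and at 50.2, 89.2 and 83.1 FPKM in siH19 libraries (log2 fold change -1.63, SE 0.21, adjusted p = 0.0255). Adipoq, the gene of adiponectin, stood at 184, 213 and 222 FPKM in siCtrl and at 63.5, 103 and 86.8 FPKM in siH19 libraries (-1.30, SE 0.17, adjusted p = 0.0255). Both groups were well apart for each of these secreted factors, and siH19 replicate 1 had the lowest value of the 6 libraries. Plin1, the coat protein of lipid droplets, was at 159, 158 and 169 FPKM in siCtrl and at 65.6, 102 and 93.9 FPKM in siH19 libraries (-0.91, SE 0.16, adjusted p = 0.0385). Fabp4, the fatty acid binding protein of adipocytes and the most abundant gene of the group, was at 2006, 1906 and 2073 FPKM in siCtrl and at 883, 1222 and 1145 FPKM in siH19 libraries (-0.89, SE 0.12, adjusted p = 0.0255). Lipe, hormone-sensitive lipase, was at 37.1, 36.5 and 40.3 FPKM in siCtrl and at 14.4, 19.6 and 19.3 FPKM in siH19 libraries (-1.07, SE 0.12, adjusted p = 0.021).

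Summed over the marker list, the siCtrl libraries held 2607, 2552 and 2762 FPKM and the siH19 libraries 1082, 1545 and 1435 FPKM. siH19 replicate 1 was the lowest of the 6 libraries for all 6 called markers, and 5 of them were still called without it. The count was 4 without siH19 replicate 2 and 0 without siH19 replicate 3 or any 1 of the siCtrl libraries, while the list median stayed between -1.03 and -0.76 in these 6 fits. In bulk RNA, fewer adipocyte-like cells and less RNA of these genes per cell cannot be told apart.

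The transcription factors that drive the cascade moved unequally. Pparg stood at 42.5, 46.2 and 46.2 FPKM in siCtrl and at 29.5, 29.5 and 29.2 FPKM in siH19 libraries, a drop with little spread (log2 fold change -0.60, SE 0.05, adjusted p = 0.00985). Cebpa stood at 147, 149 and 156 FPKM in siCtrl and at 73.5, 90.4 and 85.6 FPKM in siH19 libraries (-0.85, SE 0.08, adjusted p = 0.0142). Cebpb, the early member, stood at 183, 173 and 184 FPKM in siCtrl and at 182, 181 and 191 FPKM in siH19 libraries, with overlapping groups (0.04, SE 0.04, adjusted p = 0.656). The later factors therefore fell and the early factor did not pass the test.

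Over the list of common adipogenic genes, 13 of 30 tested fell, none rose, and 26 lay below 0, with a median of -0.47. The share called lower was 1.32% over all genes tested. Its sums were 4414, 4352 and 4719 FPKM in siCtrl and 2432, 3075 and 2947 FPKM in siH19 libraries. The number called lower was 10 without siH19 replicate 1, 8 without siH19 replicate 2, 0 without siH19 replicate 3, and 1, 0 and 0 without siCtrl replicates 1, 2 and 3. A list of triglyceride synthesis and lipid droplet genes, put together after values had been seen, had 11 of 23 called lower, none higher and a median of -0.50.

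Among the named genes that fell most were 3 enzymes of lipid metabolism, Lipe, Gpd1 and Acsl1. Gpd1, which supplies the glycerol backbone of triglycerides, stood at 22.3, 22.5 and 22.7 FPKM in siCtrl and at 7.91, 10.6 and 7.48 FPKM in siH19 libraries (-1.30, SE 0.12, adjusted p = 0.0142). Acsl1, which activates long-chain fatty acids, stood at 55.1, 45.5 and 55.7 FPKM in siCtrl and at 21.5, 24.5 and 18.8 FPKM in siH19 libraries (-1.23, SE 0.12, adjusted p = 0.0142). For Gpd1 and Acsl1 siH19 replicate 3 was the lowest library, unlike the adipokines. Car3, a carbonic anhydrase abundant in fat, stood at 518, 499 and 589 FPKM in siCtrl and at 122, 232 and 199 FPKM in siH19 libraries (-1.58, SE 0.23, adjusted p = 0.0268). Adrb3, the adrenergic receptor through which noradrenaline drives lipolysis and thermogenesis, stood at 11.8, 12.8 and 15.5 FPKM in siCtrl and at 4.21, 6.10 and 5.96 FPKM in siH19 libraries (-1.17, SE 0.15, adjusted p = 0.0255). The other named genes that fell most were Adig (adipogenin) at -1.15, Trf (transferrin) at -1.03, Lgals12 (a galectin of lipid droplets) at -1.02 and Wfdc21 at -1.01 on the log2 scale. Groups that did not overlap were a condition for naming the genes that fell most.

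**Figure D2:**
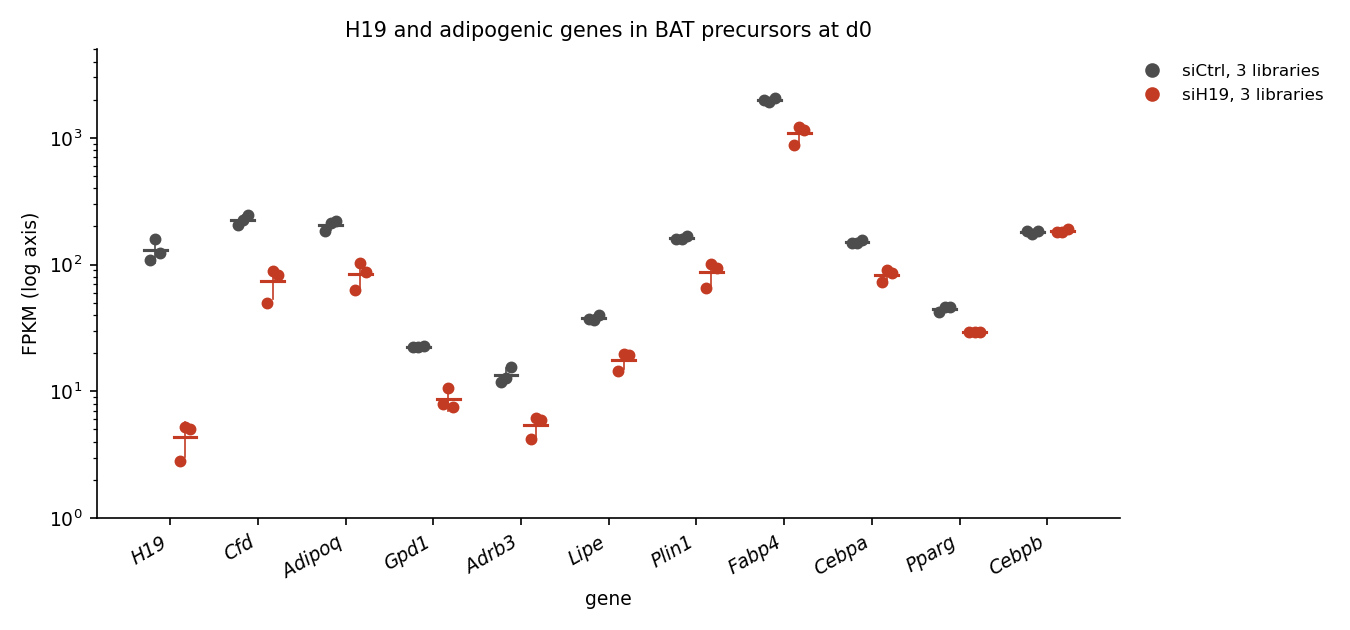
FPKM on a log axis of adipocyte genes and adipogenic transcription factors in each of the 3 siCtrl and 3 siH19 libraries, with 1 point per library, a bar at the mean and a thin line for the SD. The siH19 points of Cfd (50.2 to 89.2 FPKM) lie under all siCtrl points (207 to 244 FPKM), and those of Cebpb overlap with siCtrl.

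The brown identity genes and the precursor markers gave few calls, where 1.94% of all genes tested were called. Of 20 brown fat markers 12 passed the filter and 1 was called, Eva1a, a gene used as a brown-selective marker, which rose from 2.30, 2.60 and 2.03 FPKM to 4.29, 5.41 and 4.01 FPKM (0.75, SE 0.13, adjusted p = 0.0368). Prdm16, a regulator of brown fate, was just inside the filter at 1.47, 1.67 and 1.6 FPKM in siCtrl and 1.10, 1.23 and 1.07 FPKM in siH19 libraries (-0.27, SE 0.09, adjusted p = 0.176). Ppargc1a, a coactivator of mitochondrial biogenesis, was just outside it at 0.658 to 1.99 FPKM in siCtrl and 0.363 to 0.842 FPKM in siH19 libraries. Ucp1, the uncoupling protein of brown fat, was at most 0.0674 FPKM in any of the 6 libraries, so the defining heat-producing genes were near 0 at d0, and Cidea and Elovl3 were under 1 FPKM in every library as well. Of 23 precursor and stromal markers none was called and the median was -0.04. Pdgfra, a receptor that marks adipocyte precursors, stood at 47.7, 51.9 and 50.8 FPKM in siCtrl and at 44.2, 50.4 and 48.2 FPKM in siH19 libraries (-0.07, SE 0.06, adjusted p = 0.563). Ly6a, which encodes the stem cell antigen Sca-1, had 499 to 579 FPKM in siCtrl and 637 to 657 FPKM in siH19 libraries, groups that did not overlap without passing the test (0.25, SE 0.06, adjusted p = 0.0726). Abundant stromal markers in both groups thus matched the stromal part of the label, beside adipocyte genes that were already well above the filter in undifferentiated controls. They do not show the depot, since Pdgfra and Ly6a had siCtrl means of 115 and 321 FPKM in vWAT precursors.

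Markers of other cells that a stromal vascular fraction can hold were read in the same way. All 14 macrophage markers tested lay below 0, with 4 called lower and a median of -0.33, and their sums were 175.4 to 218.1 FPKM in siCtrl and 128.4 to 138.6 FPKM in siH19 libraries. C1qa, a chain of the first complement component, stood at 4.32, 5.00 and 4.04 FPKM in siCtrl and at 2.31, 1.63 and 1.18 FPKM in siH19 libraries (-1.03, SE 0.17, adjusted p = 0.0338). Lyz2, the lysozyme of myeloid cells, stood at 105, 125 and 134 FPKM in siCtrl and at 75.1, 78.3 and 79.4 FPKM in siH19 libraries (-0.63, SE 0.09, adjusted p = 0.0257). Macrophage transcripts were thus lower in all 3 siH19 libraries, alongside the adipocyte genes. C1qb (-0.90) and Tyrobp (-0.60) were the other 2 called markers, where 1.32% of all genes tested were called lower. The count of 4 fell to 2 without siCtrl replicate 1, to 1 without siH19 replicate 1 and to 0 without any 1 of the other 4 libraries. Any part of the macrophage content in the other results was not tested.

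Skeletal myoblast markers lay the other way without a call. All 5 tested were above 0 with a median of 0.53, but their sums of 41.6 to 69.8 FPKM in siCtrl and 59.0 to 87.3 FPKM in siH19 libraries overlapped. Myog, a myogenic transcription factor, stood at 11.6, 19.5 and 11.9 FPKM in siCtrl and at 14.2, 24.2 and 25.3 FPKM in siH19 libraries (0.53, SE 0.27, adjusted p = 0.338). Of 17 skeletal muscle lineage genes 16 were above 0 with a median of 0.40 and none called. Of the 8 endothelial, 6 pericyte and 3 Schwann cell markers tested none was called, and none of the 10 lymphocyte markers passed the filter, with 3 at 0 in all 6 libraries. Of the 2 mesothelial markers tested Krt19, a keratin, rose (0.68, SE 0.10, adjusted p = 0.0307), where 0.617% of all genes tested were called higher.

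Secreted signals were among the genes that rose. Il11, a cytokine of the interleukin-6 family made by stromal cells, stood at 14.1, 13.9 and 13.6 FPKM in siCtrl and at 34.3, 29.5 and 26.2 FPKM in siH19 libraries (log2 fold change 1.05, SE 0.10, adjusted p = 0.0142). Tslp, an alarmin cytokine, stood at 49.6, 46.1 and 45 FPKM in siCtrl and at 86.8, 79.9 and 89.3 FPKM in siH19 libraries (0.85, SE 0.06, adjusted p = 0.00693). Ptgs2, the inducible cyclooxygenase of prostaglandin synthesis, stood at 51.9, 44.5 and 41.5 FPKM in siCtrl and at 82.8, 83.7 and 79.4 FPKM in siH19 libraries (0.83, SE 0.08, adjusted p = 0.0176). Each was higher in every siH19 library than in any siCtrl library, as was every gene called higher. In the list of chemokines, cytokines and acute inflammation, these 3 genes were the ones that rose among 27 tested, 1 fell, and the list median was -0.02. The shares over all genes tested were 0.617% called higher and 1.32% called lower. The number that rose was 0 without siCtrl replicate 3, 1 without siCtrl replicate 2, 2 without siCtrl replicate 1 or siH19 replicate 3, and 3 without siH19 replicate 1 or 2.

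The one that fell was Cxcl12, a chemokine of stromal niches. It stood at 342, 326 and 350.3 FPKM in siCtrl and at 161, 189.9 and 184 FPKM in siH19 libraries (-0.93, SE 0.07, adjusted p = 0.00764). The inflammatory list therefore did not move as a whole.

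Hbegf and Inhba, which encode growth factor ligands, rose as well. Hbegf, a ligand of the EGF receptor, stood at 19.1, 17.7 and 17.5 FPKM in siCtrl and at 36.0, 34.1 and 35.0 FPKM in siH19 libraries (0.91, SE 0.05, adjusted p = 0.00535). Inhba, the subunit of activin A, stood at 160.2, 173 and 169.9 FPKM in siCtrl and at 271, 256 and 257 FPKM in siH19 libraries (0.64, SE 0.04, adjusted p = 0.00638). Inhba was among the 2 called members of the TGF-beta, activin and BMP list, both higher, out of 37 tested with a median of -0.02. By comparison, 0.617% of all genes tested were called higher. The count of called list members was 0 without siCtrl replicate 3 and 1 without any 1 of the other libraries. Plaur, the urokinase receptor, stood at 97.9, 92.6 and 90.3 FPKM in siCtrl and at 143, 133 and 131 FPKM in siH19 libraries (0.53, SE 0.05, adjusted p = 0.0158), and it was the single call among 30 matrix protease and crosslinker genes.

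Antioxidant enzymes under the transcription factor Nrf2 gave 3 calls among 20 tested, all higher, with a list median of 0.17. The share called higher was 0.617% over all genes tested. Nqo1, a quinone reductase, stood at 22.6, 24 and 20.4 FPKM in siCtrl and at 47.5, 39.1 and 40.4 FPKM in siH19 libraries (0.89, SE 0.09, adjusted p = 0.0183). Hmox1, heme oxygenase 1, stood at 162, 151 and 152 FPKM in siCtrl and at 245, 225 and 226 FPKM in siH19 libraries (0.58, SE 0.05, adjusted p = 0.00985). Gsta4, a glutathione transferase, stood at 8.94, 7.62 and 7.01 FPKM in siCtrl and at 15.7, 12.9 and 12.5 FPKM in siH19 libraries (0.73, SE 0.12, adjusted p = 0.0334). siH19 replicate 1 was the highest library for each of the 3 enzymes. The number called was 2 without siH19 replicate 1 or 2, 1 without siH19 replicate 3 or siCtrl replicate 1, and 0 without siCtrl replicate 2 or 3.

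Immediate early genes, which cells induce within minutes of a stimulus, lay above 0 in 25 of 28 cases with a median of 0.24. Over all genes tested, 43% lay above 0 and 0.617% were called higher. The 2 list members called were Nr4a1, a nuclear receptor (0.63, SE 0.09, adjusted p = 0.0297), and Dusp5, a phosphatase of ERK (0.48, SE 0.05, adjusted p = 0.021). Egr4, a related zinc finger factor of low level, stood at 2.91, 2.99 and 3.72 FPKM in siCtrl and at 5.29, 5.44 and 7.22 FPKM in siH19 libraries (0.72, SE 0.14, adjusted p = 0.0477). Both list calls depended on the full set, as 1 member was called without siH19 replicate 2 and 0 without any 1 of the other libraries.

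The other named genes that rose most were Clcn5, a chloride and proton exchanger of endosomes, at 4.71, 6.09 and 5.41 FPKM in siCtrl and 10.3, 12.8 and 11.5 FPKM in siH19 libraries (0.97, SE 0.11, adjusted p = 0.0212), and Lrch4 (0.78), Bcas3 (0.74) and the cytokine gene Tnfsf15 (0.74). Rpl39-ps also rose (0.86, SE 0.09, adjusted p = 0.0207), but it is a ribosomal protein pseudogene that can share reads with its parent gene, so its value is uncertain. Groups that did not overlap were a condition for naming these 5 genes.

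**Figure D3:**
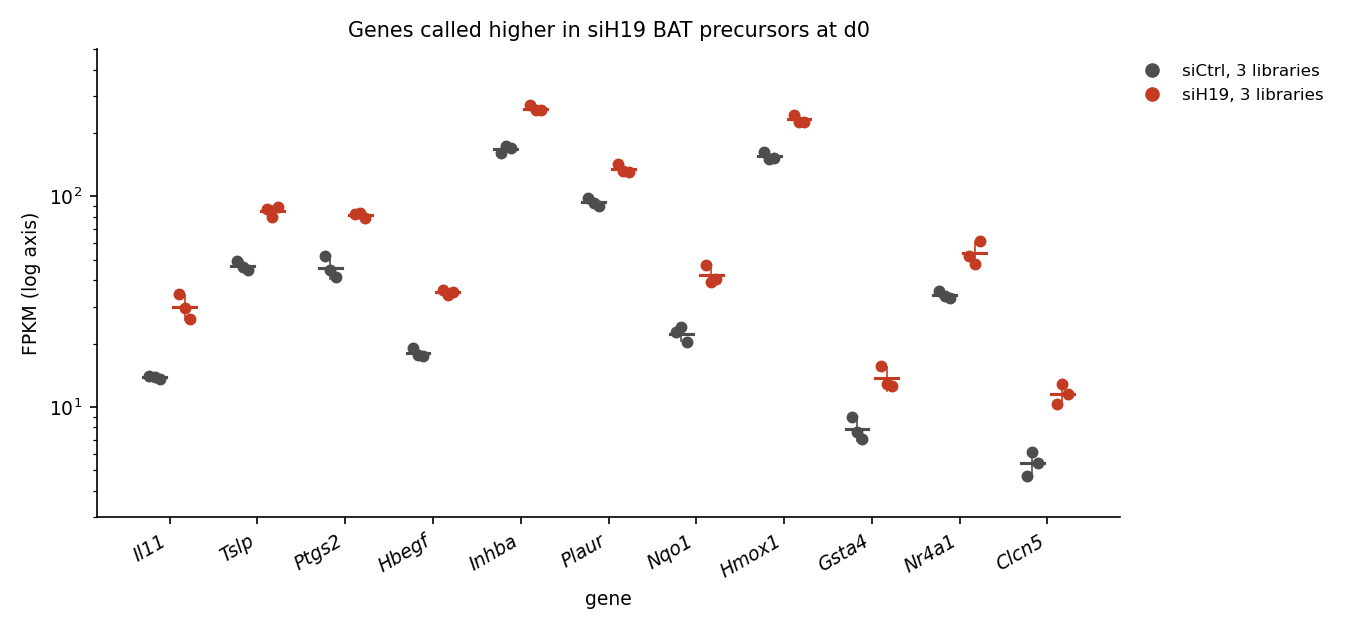
FPKM on a log axis of genes called higher in siH19 BAT precursors, with 1 point for each of the 3 siCtrl and 3 siH19 libraries, a bar at the mean and a thin line for the SD. Il11 lies at 13.6 to 14.1 FPKM in siCtrl and at 26.2 to 34.3 FPKM in siH19 libraries. No gene shown has overlapping groups, which holds for every called gene.

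The Wnt and the insulin and IGF lists held lower calls and no higher ones. The Wnt list had 4 of 26 called lower, none higher, and a median of -0.09, where 1.32% of all genes tested were called lower. Sfrp2, a secreted Wnt modulator abundant in stroma, stood at 216, 221 and 226 FPKM in siCtrl and at 127, 151 and 157 FPKM in siH19 libraries (-0.61, SE 0.08, adjusted p = 0.0255). Sfrp4 (-0.66), the receptor Fzd4 (-0.58) and the Wnt amplifier Rspo3 (-0.50) were the others, and those of adjusted p nearest the threshold were Rspo3 at 0.0494 and Sfrp4 at 0.0486. Under trimmed-mean scaling and quantile normalization 2 list members were called, and the count was 2 without siH19 replicate 1, 1 without siH19 replicate 2 and 0 without any 1 of the other libraries.

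In the insulin and IGF list 2 of 22 fell, where 1.32% of all genes tested were called lower, and the list median was 0.03. Igfbp4, a secreted IGF binding protein, stood at 1154, 1183 and 1187 FPKM in siCtrl and at 812, 920.4 and 848 FPKM in siH19 libraries (-0.45, SE 0.05, adjusted p = 0.0188). Irs2, an insulin receptor substrate, fell by 0.53 (SE 0.10, adjusted p = 0.0494), close to the threshold. The list had 1 call under both scalings and without siH19 replicate 1 or 2, and 0 without any 1 of the other libraries. Fbln1, a matrix fibulin, stood at 23.2, 22.9 and 23.9 FPKM in siCtrl and at 14.8, 14.9 and 15.5 FPKM in siH19 libraries (-0.60, SE 0.05, adjusted p = 0.00985). It and Col12a1, a collagen found with fibrils, which rose (0.41, SE 0.07, adjusted p = 0.0434), were the calls among 37 collagen and matrix genes. Stromal complement and coagulation genes had 4 of 18 called lower with a median of -0.30, among them Cfb (factor B), at 66.0, 72.5 and 63.3 FPKM in siCtrl and 36.7, 48.1 and 45.6 FPKM in siH19 libraries (-0.63, SE 0.11, adjusted p = 0.0385). Cfd, C1qa and C1qb were the other 3, so members of this list are shared with the adipocyte and macrophage lists. The 4 calls became 2 without siH19 replicate 1 or 2, 1 without siCtrl replicate 1 and 0 without any 1 of the other libraries.

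Several lists of growth, respiratory and stress genes were without a call in the main fit. None of 40 DNA replication and cell cycle genes was called (median -0.14), nor any of 26 p53 target and growth arrest genes (median 0.14). Of these 26, 22 lay above 0 and 4 below, where 43% of all genes tested lay above 0. Trimmed-mean scaling gave 1 higher call among the 26 and quantile normalization gave 2. Cdkn1a, the cyclin-dependent kinase inhibitor p21, stood at 256, 259.8 and 249 FPKM in siCtrl and at 332, 316 and 319 FPKM in siH19 libraries, with an adjusted p of 0.0176 but a log2 fold change of 0.34, short of 1.3-fold. Of 55 oxidative phosphorylation subunits 49 lay below 0 with a median of -0.11 and none was called, with Atp5b (ATP synthase) at 902 to 983 FPKM in siCtrl and 836 to 861 FPKM in siH19 libraries (-0.16, SE 0.04, adjusted p = 0.0832). All 26 interferon-stimulated genes lay below 0 with a median of -0.32 and none called, with 24 below 0 under trimmed-mean scaling and 22 under quantile normalization. Lists of let-7 linked growth genes, RNA interference factors, contractile, cholesterol synthesis, unfolded protein response, glycolysis, YAP and TAZ target, ribosomal protein and angiogenic genes had no called member either. In the lists put together after values had been seen, 2 of 22 fatty acid oxidation genes and 1 of 19 branched-chain amino acid breakdown genes were called lower, and 2 of 6 EGF family genes were called higher. The shares over all genes tested were 1.32% lower and 0.617% higher.

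**Figure D4:**
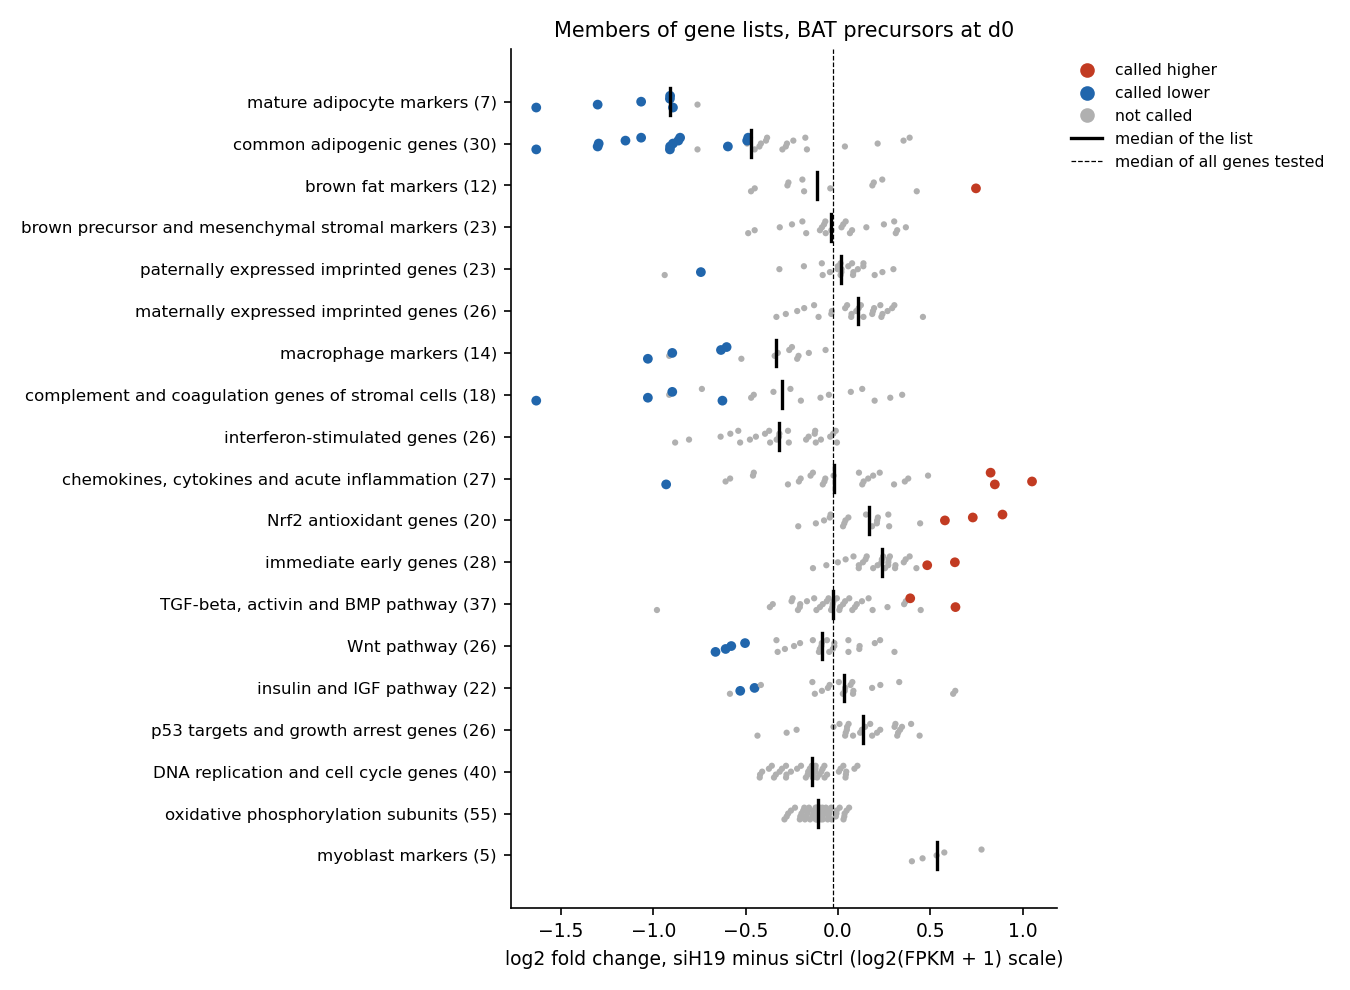
Log2 fold change of each tested member of gene lists, with the number tested in brackets, coloured by call, the median of each list as a bar and the median of all genes tested (-0.03) as a dashed line. Mature adipocyte markers have a median of -0.91, common adipogenic genes of -0.47, and precursor and stromal markers of -0.04.

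Imprinted genes were described because PEGs are the class that H19 has been linked to in brown fat. Of 23 PEGs tested 1 was called, and it was lower, where 1.32% of all genes tested were called lower, and the list median was 0.02. Nnat, neuronatin, stood at 27.8, 26.4 and 30.9 FPKM in siCtrl and at 15.1, 17.6 and 16.9 FPKM in siH19 libraries (-0.74, SE 0.08, adjusted p = 0.021), and a gene model on the opposite strand overlaps it. Mest, a growth-linked PEG, stood at 17.8, 18.4 and 20.3 FPKM in siCtrl and at 6.23, 14.8 and 8.65 FPKM in siH19 libraries, lower in each but too uneven to pass (-0.94, SE 0.27, adjusted p = 0.123). Dlk1, a PEG that holds precursors undifferentiated, stood at 51.0, 41.7 and 43.8 FPKM in siCtrl and at 49.5, 49.7 and 44.6 FPKM in siH19 libraries (0.08, SE 0.09, adjusted p = 0.673), and Peg3 gave -0.18 (SE 0.12, adjusted p = 0.45). Of 26 MEGs tested none was called, with a median of 0.11, including the IGF2 clearance receptor Igf2r (0.23, SE 0.08, adjusted p = 0.192) and the growth inhibitor Cdkn1c (-0.22, SE 0.19, adjusted p = 0.569). The list sums of PEGs were 1349 to 1389 FPKM in siCtrl and 1351 to 1398 FPKM in siH19 libraries, so the groups overlapped.

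Large changes were also seen in microRNA genes, which FPKM measures poorly because their annotated exons are short. Their mature sequences (RefSeq, GRCm38.p6) are shown with the seed in capitals, since the seed decides which messages a microRNA pairs with.
miR-22-3p: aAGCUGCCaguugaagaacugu
miR-22-5p: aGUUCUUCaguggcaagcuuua
miR-196a-5p: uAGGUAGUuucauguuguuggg
miR-8094: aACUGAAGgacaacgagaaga
No seed is shared among these 4. Mir22 stood at 187, 115 and 70.9 FPKM in siCtrl and at 0.0197, 0.00674 and 0.0221 FPKM in siH19 libraries. Its host transcript Mir22hg, which contains it on the same strand, lay at 46.8 to 56.0 FPKM in siCtrl and 47.2 to 48.9 FPKM in siH19 libraries and was not called (log2 fold change -0.08, SE 0.07, adjusted p = 0.588). Mir196a-1 stood at 16.9, 17.3 and 37.5 FPKM in siCtrl libraries and Mir8094 at 11.2, 23 and 24.8 FPKM, and both were listed at 0 in all 3 siH19 libraries. These genes and Mir22 are among the 16 lower genes that passed the filter only through siCtrl libraries, so the filter fixed the direction of their calls. At d3 Mir196a-1 had a mean of 0 FPKM in siCtrl and 19.9 FPKM in siH19 libraries. It did not pass the expression filter there, so at least 1 siH19 library stayed under 1 FPKM. These libraries were made from polyadenylated RNA, so the values do not measure mature microRNAs. In total 8 lower and 4 higher calls had under 200 bases of annotated exon, and whether library or annotation effects set them was not tested.

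The d0 brown response was set beside the siH19 effects in the 6 BAT d3 and the 6 vWAT d0 libraries, neither of which shares a library with it. Of all genes tested, 8.57% were called in either direction at BAT d3 and 1.53% in vWAT precursors. Of the 167 genes called lower, 159 were also tested in vWAT precursors, where 126 had the same sign and 50 (31.4%) were called lower, against 1.2% of all genes tested there. These 50 made up 31.8% of the genes called lower in vWAT precursors. At BAT d3, 157 of the 167 were tested, 113 had the same sign and 28 (17.8%) were called lower against a background of 2.18%, with 2 called higher. The 28 were 10.3% of the genes lower at d3. Lower genes were thus called lower again more often than all genes in both other settings. The median change of the group was -0.28 in vWAT at d0 and -0.13 in BAT at d3. Over all genes tested in both sets it was -0.03 and 0.06. The group median of -0.63 in BAT at d0 cannot be set against these, because the genes were chosen by their change there.

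For the genes called higher the order was different. Of the 78, 62 were tested at BAT d3, where 49 had the same sign and 30 (48.4%) were called higher against a background of 6.39%, and 1 was called lower. In vWAT precursors 72 were tested, 48 had the same sign and 3 (4.17%) were called higher against 0.329%. Their median change was 0.49 in BAT at d3 and 0.10 in vWAT at d0, against 0.06 and -0.03 over all genes tested in both sets. That of 0.57 in BAT at d0 again follows from the choice of the genes. Reciprocally, the shared genes were 3.75% of those higher at d3 and 6.98% of those higher in vWAT precursors. Across all genes tested in both, Spearman's rho of the effects was 0.276 with BAT d3 (11739 genes) and 0.239 with vWAT d0 (12182 genes), given as a description over genes, which are not independent replicates.

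Differences between settings were tested as interactions at an adjusted p under 0.05. The effect of siH19 differed between BAT and vWAT precursors for 140 of 13708 genes (1.02%). Cxcl12 was among them, with log2 fold changes of -0.93 in BAT and 0.07 in vWAT precursors, as was Nqo1, with 0.89 and -0.19, and Il11, with 1.05 and -1.05, where the fall in vWAT cells did not pass the test (adjusted p = 0.104). The macrophage genes C1qa, Lyz2 and Tyrobp were also among them, with effects of 0.03, 0.00 and 0.14 in vWAT precursors, where none of the 14 markers was called. For C1qb, the other macrophage marker called in BAT, the difference of 0.82 did not pass (SE 0.17, adjusted p = 0.0529). The adipocyte genes named above did not pass this test of a difference. In vWAT precursors 16 of 29 common adipogenic genes tested fell too, such as Fabp4 (-0.80) and Plin1 (-0.81), and 1 rose. Of all genes tested there, 1.2% were called lower and 0.329% higher.

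Between days the effect differed for 1230 of 13575 genes (9.06%) in BAT cells. Pparg had a log2 fold change of -0.60 at d0 and 0.00 at d3, and Cebpa had -0.85 at d0 and -0.13 at d3, both with a difference past the threshold. Fabp4 changed from -0.89 at d0 to -0.11 at d3, when the siCtrl mean had reached 27822 FPKM. Of 29 common adipogenic genes tested at d3, 9 were called lower and 1 higher. The shares over all genes tested at d3 were 2.18% lower and 6.39% higher. Adrb3 and Cfd, at -0.52 and -0.81 on d3, were called at both days without a difference that passed. The effects on Tslp and Inhba were larger at d3, at 1.76 against 0.85 and at 1.25 against 0.64, and for both the difference passed the test. Their levels were much lower at d3, however. Tslp means were 46.9 (siCtrl) and 85.3 (siH19) FPKM at d0 and 2.75 and 11.7 FPKM at d3. Those of Inhba were 168 and 261 FPKM at d0 and 4.50 and 12.1 FPKM at d3. Nnat turned from -0.74 at d0 to 0.73 at d3 (difference 1.48, SE 0.12, adjusted p = 0.000352), with both effects past the threshold. Macrophage markers stayed lower at d3, with 7 of 12 tested called lower, against 2.18% of all genes tested, and a median of -0.67.

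**Figure D5:**
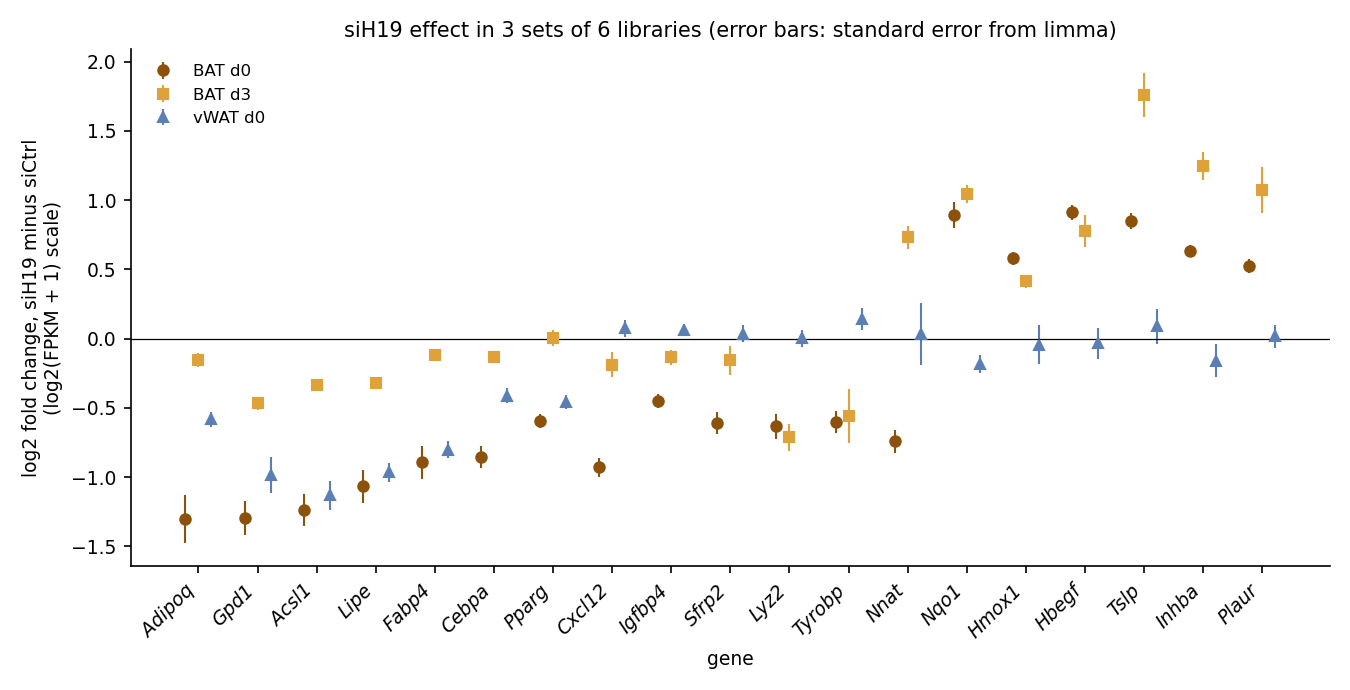
Log2 fold change of siH19 minus siCtrl, with the standard error from limma, in 3 sets of 6 libraries each (BAT d0, BAT d3 and vWAT d0) for named genes. Adipocyte genes such as Fabp4 are at -0.89, -0.11 and -0.80, and Tslp is at 0.85, 1.76 and 0.09, in that order of sets.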

How the data were processed

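Poly-A RNA of mouse BAT and vWAT stromal cells was sequenced in 24 libraries of 8 groups, of which the 6 BAT d0 libraries were analysed. The authors aligned reads to GRCm38 with TopHat2 2.0.10 and computed expression on Ensembl genes with Cufflinks (2.2.1 in the submitters' processing notes), and they deposited 1 table. Its header gives no unit, and FPKM was assumed for the deposited values because the study's figures use it. They hold no counts, so total depth is unknown and no counting interval was given. The labels describe a directional kit and paired-end reads, the methods single-end reads, and the strand setting of the quantification is not given in the sources used here, so overlapping genes may share reads. 0 columns were left out.

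Values were transformed to log2(FPKM + 1), which understates changes of low genes, and the 6 libraries were compared by limma 3.58.1 (R 4.3.3) with moderated statistics and an intensity trend. A call needed both 1.3-fold and p under 0.05 after Benjamini-Hochberg adjustment. Interactions were fitted on 12 libraries at an adjusted p under 0.05. Changing these settings, scaling, the replicate block and leaving out each library were the alternatives. The fit was tested on simulated data. Tables and plots used Python 3.11.15, pandas 2.3.3 and matplotlib 3.10.9. Coordinates are those of GENCODE on GRCm38, in which 49109 genes were found, 44912 with identical coordinates.

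Gene lists were compiled from symbols and described by counts and medians. The members and lists were chosen with earlier results of these data known. Named genes were H19 and its neighbours, the 12 named genes with the largest rise and the 12 with the largest fall among called genes with a mean of at least 5 FPKM and groups that did not overlap, up to 4 called members of each list (or 2 of the highest level), imprinted and marker genes that the study names, and the 3 short RNAs of largest change. Some genes that the rule selects are not reported here, and members named beside list counts were chosen after their values were seen.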

Additional observations from a re-analysis of the deposited data

Results flagged for a closer look

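The effect of siH19 differed between settings, by interaction tests in limma at an adjusted p under 0.05, for many of the genes named. Values are differences of log2 fold changes. For vWAT precursors minus BAT precursors at d0, the difference was 2.07 for H19. Its siCtrl mean was 11.7 FPKM in vWAT and 130.3 FPKM in BAT precursors. From 11.7 FPKM, even a fall to 0 would be smaller on the log2(FPKM + 1) scale than the BAT fall of 4.63. The sign of this difference was thus set by the starting levels, and it does not test how well the knockdown worked. Genes higher in BAT siH19 cells had negative differences, namely -2.10 for Il11, -1.20 for Clcn5, -1.08 for Nqo1, -0.95 for Hbegf, -0.79 for Inhba, -0.78 for Gsta4, -0.76 for Tslp, -0.51 for Plaur and -0.44 for Cdkn1a. Genes lower in BAT siH19 cells had positive ones, namely 1.06 for C1qa, 1.00 for Cxcl12, 0.74 for Tyrobp, 0.65 for Sfrp2, 0.64 for Lyz2, 0.52 for Igfbp4 and 0.47 for Fbln1. The values of 4.54 for Mir196a-1 and -0.88 for Eva1a test no depot difference in the response, because Mir196a-1 is listed at 0 and Eva1a averages under 1 FPKM in vWAT precursors, so the difference rests mainly on the BAT effect.

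For d3 minus d0 in BAT cells, the difference was 1.99 for H19. Adipocyte genes that had fallen at d0 had positive differences, with 1.15 for Adipoq, 0.95 for Wfdc21, 0.90 for Acsl1, 0.90 for Trf, 0.87 for Adig, 0.83 for Gpd1, 0.78 for Fabp4, 0.77 for Lgals12, 0.74 for Lipe, 0.73 for Plin1, 0.72 for Cebpa and 0.60 for Pparg. Other genes lower at d0 were at 1.48 for Nnat, 0.74 for Cxcl12, 0.70 for Fbln1, 0.66 for Fzd4, 0.53 for Irs2 and 0.32 for Igfbp4. Mir196a-1 had 7.77, being listed at 0 in the siH19 libraries at d0 and in the siCtrl libraries at d3. It did not pass the expression filter at d3, so this value does not test a reversal of the response. Positive differences were also found for Tslp (0.91), Inhba (0.61) and Ly6a (0.60), whose effects lay above 0 on both days, and for Pdgfra (0.49), whose effect was -0.07 at d0 and 0.42 at d3. Negative differences were -0.83 for Bcas3, -0.66 for Gsta4 and -0.20 for Cdkn1a. The values of -0.89 for Il11, -0.70 for Egr4 and -0.48 for Tnfsf15 do not test a loss of the response, because these genes were under the expression filter at d3, where log2(FPKM + 1) holds any effect near 0.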

How the results depend on the processing

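The main count of 245 calls (78 higher, 167 lower) depended on several settings. It was 163 (47 higher) with a pseudocount of 5 FPKM, 35 (15 higher, 20 lower) with no filter beyond 1 library above 0, 395 (151 higher) without a minimum fold change, 759 (245 higher, 514 lower) at an unadjusted p, and 518 (151 higher, 367 lower) with the spread taken from all 24 libraries. Leaving out 1 library gave 4 to 74 calls (3 to 20 higher, 1 to 54 lower), with fewer samples in each fit. H19 stayed called under all of them. The log2 fold change of Igf2 lay between -0.00854 and 0.23 when 1 library was left out, and it was below 0 without siH19 replicate 3 and, at -0.00431, without siCtrl replicate 1.

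Whether same-numbered replicates belong together is not said in the sources used here, so the place of a replicate block in the fit is not settled. Deviations from the group means correlated at 0.0678, 0.088 and -0.0074 between replicates of the same number. Between those of different numbers they correlated at -0.09 to 0.02, and 4 of 6 samples correlated best with their own number. With the replicate block, 2 genes were called (0 higher, 2 lower), and the depot by siRNA interaction had 32 calls against 140. The day by siRNA interaction in BAT had 998 calls with the block and 850 under trimmed-mean scaling, against 1230. Under that scaling the depot interaction had 142 calls. The cause of these shifts was not tested. Neither counts nor total depth are known, so no limit set by depth can be given.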
